A study of Mus musculus with 24 samples.

Results

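The RNA of mouse splenic B cells 12 h after in vitro activation was compared with the RNA of naive splenic B cells. The groups were taken from the library titles, and the comparison holds 6 of the 24 libraries of the series, 3 labelled as 12 h in vitro activated B cells and 3 labelled as naive. All cells came from spleens of BALB/c mice, an inbred laboratory strain. Every sample was enriched on beads, stained with antibodies and sorted on a flow cytometer before its RNA was isolated. No stimulus, culture condition, animal, age or sex is given in the labels, so the model is limited to what the words 12 h in vitro activated say, and the comparison joins the activation with 12 h of culture. The 3 libraries of 4 h and the 3 of 24 h in vitro activated B cells were used to place the 12 h cells in time. The series was made to profile germinal center B cells, and the in vitro activated cells stand beside them as activated cells that did not pass through a germinal center.

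A naive B cell is small and quiescent: it circulates between blood and lymphoid organs, carries its antigen receptor, and is held out of the cell cycle by factors such as the FOXO and KLF families. Once activated, a B cell first induces immediate-early genes, then enlarges by making ribosomes, proteins, nucleotides and mitochondria during the first gap phase, loads replicative helicases onto its DNA, and only afterwards copies its DNA and divides. Its surface changes as well, as adhesion, chemokine and cytokine receptors, ligands for T cells and the antigen-presenting MHC class II system are set to new levels.

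Values were deposited as log2 of a quantity close to CPM (read counts scaled to a common library total), one value per gene and library, and all levels and differences below are on that log2 scale unless a fold is named. Levels are not divided by gene length, so they were compared between libraries and not between genes. A level of 0 or more in at least 3 of the 24 libraries was required, which left 11885 of 23420 genes. Each difference is the 12 h mean minus the naive mean with its standard error (SE) from limma, fitted over all 24 libraries, and a gene is said to have risen, fallen or changed at a Benjamini-Hochberg adjusted p under 0.05. Nothing says that the 3 libraries of a group came from separate animals or cultures, so the p-values reflect the spread between libraries alone, which may be technical. Differences between replicate numbers had also been taken out before deposit. The spread may therefore be understated, with p-values too small and correlations within a group too high. The number of reads behind each library is unknown, and the size of a difference at a low level rests on values under a few CPM: with 1 CPM added to every value, 24 of the genes that passed the test and are named here had a difference more than 1.5 times smaller. In bulk RNA, a change in a gene's level cannot be told apart from a change in the share of cells that carry it.

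Most of the transcriptome differed between the groups. Of 11885 tested genes, 9618 changed (80.9%), 4956 of them higher (41.7%) and 4662 lower (39.2%) at 12 h, and the median difference over all tested genes was 0.03. The deposited values of all libraries share nearly 1 distribution, so the balance of rises and falls and the small median follow largely from the scaling. A gene that rose or fell did so relative to the other RNA of its library, and amounts of RNA per cell were not measured. A change of at least 2-fold was found for 4624 genes (38.9%), 2304 higher (19.4%) and 2320 lower (19.5%). At least 16-fold changes were found for 182 genes (1.53%), 74 higher (0.623%) and 108 lower (0.909%). The 3 libraries of one group lay wholly above those of the other for 10114 genes (85.1%). Across the tested genes, Pearson's correlation between 2 libraries was 0.9932 to 0.9939 within the 12 h group, 0.992 to 0.993 within the naive group and 0.8824 to 0.8916 between the groups. With so many genes past the test, a count of list members means little until it is set beside 41.7% higher and 39.2% lower, and sizes are given with it. For counts against 4 h the shares of all tested genes are 34.6% higher and 27.2% lower at 12 h. For counts against 24 h they are 34.8% higher and 22.5% lower.

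**Figure D1:**
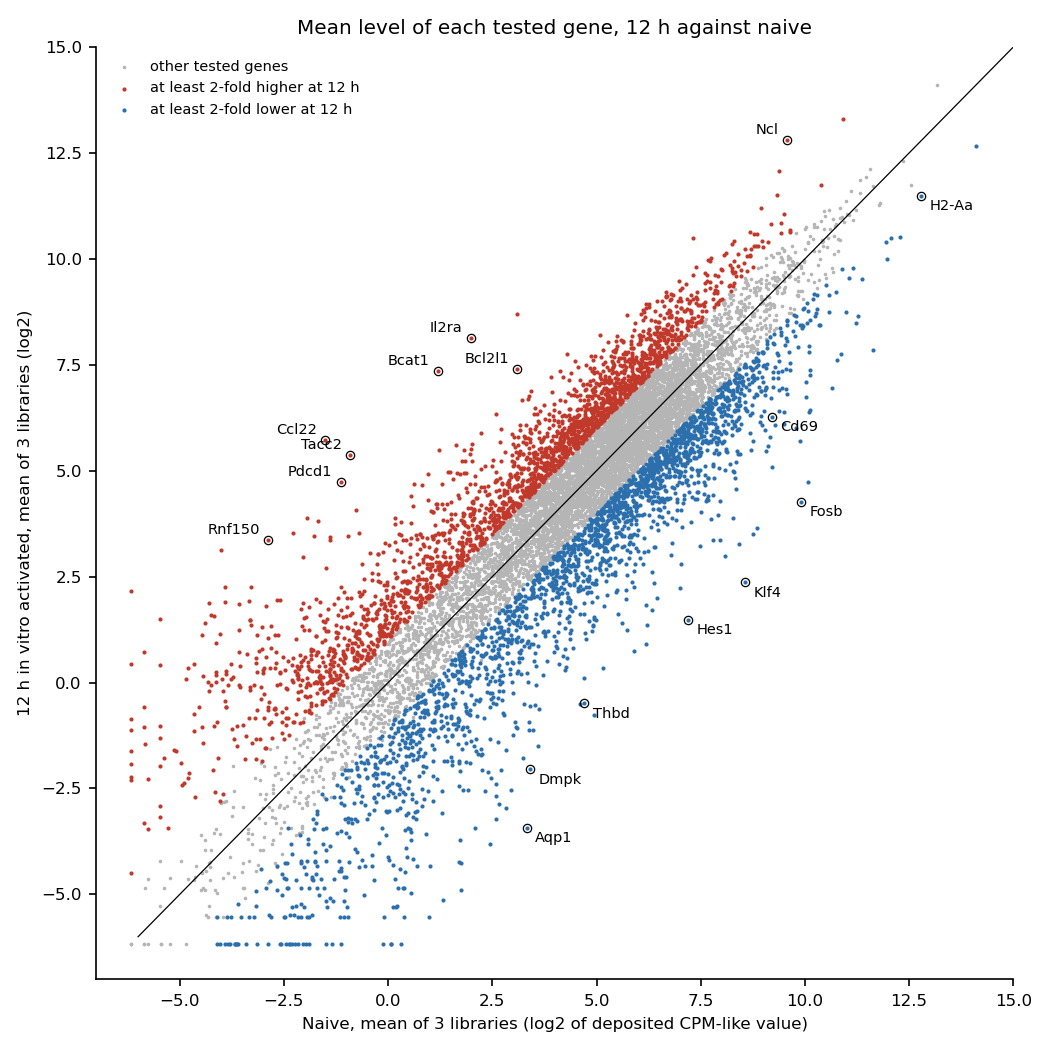
Mean level of each of the 11885 tested genes in the 3 naive libraries (horizontal axis) and the 3 libraries of 12 h (vertical axis), both log2; the line marks equal levels and circles mark labelled genes. The 2304 genes at least 2-fold higher at 12 h lie above the line and the 2320 at least 2-fold lower lie below it.

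The labels were checked against genes of known cell type and state. The B-cell surface gene Ms4a1, which encodes CD20, measured 9.18, 9.07 and 9.22 in the 12 h libraries, against 10.08, 10.43 and 10.39 in the naive libraries. Pax5, which encodes the factor that keeps B cells in their lineage, measured 6.18, 6.15 and 6.17 in the 12 h libraries, against 8.18, 7.95 and 8.09 in the naive libraries. Both were at high levels in every library and both fell, by 1.14 ± 0.11 for Ms4a1 and by 1.91 ± 0.09 for Pax5 (SE). The Y-linked gene Ddx3y stood at 5.36, 5.42 and 5.55 in the 12 h libraries, against 5.71, 5.75 and 5.77 in the naive libraries, and the gene of the X-inactivation transcript, Xist, at 6.84, 6.86 and 6.87 in the 12 h libraries, against 7.01, 7.18 and 7.37 in the naive libraries. RNA of both was present in all 6 libraries, and the differences, -0.30 for Ddx3y and -0.33 for Xist, did not pass the test. The classical early activation antigens did not separate the groups in the direction of their name. Cd69, which encodes a lectin that retains lymphocytes in tissue, stood at 6.21, 6.23 and 6.39 in the 12 h libraries, against 9.48, 9.12 and 9.05 in the naive libraries. Every 12 h library was below every naive library, and Cd69 fell by 2.94 ± 0.22 (adjusted p = 1.88e-10). Cd86, which encodes a ligand of CD28 on T cells, stood at 5.46, 5.36 and 5.29 in the 12 h libraries, against 6.23, 6.18 and 6.16 in the naive libraries. It fell by 0.82 ± 0.07 (adjusted p = 5.66e-10), again without overlap.

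Markers of other cells that a spleen sort could hold were read in full. Of 13 tested macrophage and monocyte markers, 11 fell and 1, Emr1, rose, and their summed linear level was 24.7 to 28.0 CPM at 12 h, against 72.6 to 82.6 CPM in naive libraries. Emr1, with means of 3.72 at 12 h and 1.84 in naive libraries, was the largest part of that sum at 12 h. The complement genes C1qa, C1qb and C1qc were near the lowest value of the files at 12 h. All 8 tested natural killer cell markers fell, with sums of 6.67 to 10.6 CPM at 12 h and 53.2 to 92.2 CPM in naive libraries. Of 7 tested erythroid markers 6 fell, with sums of 5.14 to 7.62 CPM at 12 h and 97.4 to 108 CPM in naive libraries. The alpha-globin genes Hba-a1 and Hba-a2 were at the lowest value in both groups. The beta-globin gene Beta-s was not, with means of 1.25 at 12 h and 5.74 in naive libraries, so globin RNA was present in naive libraries. Of 8 tested neutrophil markers 7 fell, with sums of 6.59 to 10.5 CPM at 12 h and 26.9 to 37.5 CPM in naive libraries, a count that was 4 without the second naive library. Of 6 tested dendritic cell markers 4 fell and 1, Zbtb46, rose, with sums of 20.8 to 21.8 CPM at 12 h and 41.0 to 42.4 CPM in naive libraries. The naive sum is mostly Flt3, with means of 2.14 at 12 h and 4.87 in naive libraries. The 12 h sum is mostly Zbtb46, with means of 3.60 at 12 h and 1.48 in naive libraries. The 3 tested platelet markers fell, with sums of 33.8 to 37.5 CPM at 12 h and at least 193 CPM in naive libraries, and 2 of 3 tested stromal markers fell, with sums of at most 56.9 CPM at 12 h and 257 to 299 CPM in naive libraries. The platelet sum is nearly all Itgb3, an integrin gene, with means of 5.10 at 12 h and 7.59 in naive libraries, and the stromal sum nearly all Pecam1, which is also on the list of inhibitory coreceptors, with means of 5.70 at 12 h and 8.07 in naive libraries, while Pf4, Ppbp and Gp9 of platelets and the 3 collagen genes were under 1 CPM in both groups. Of 8 tested T-cell markers 6 fell and 1, Lck, rose by 2.01, and the sum, 168 to 181 CPM at 12 h and 55.5 to 65.1 CPM in naive libraries, is nearly all Lck, a kinase gene that B cells also use. Among markers of other B-lineage cells, 9 of 10 tested marginal zone markers fell, with sums of 776 to 801 CPM at 12 h and 3190 to 3360 CPM in naive libraries, and 5 of 7 tested plasma cell markers fell, with sums of 809 to 845 CPM at 12 h and 1470 to 1690 CPM in naive libraries. The plasma cell sum is mostly Irf4, also on the list of B-cell identity factors, with means of 9.46 at 12 h and 10.21 in naive libraries. The part of all these other cells in the differences below was not tested. The 8 B-cell markers themselves summed to 3360 to 3480 CPM at 12 h and 7170 to 7670 CPM in naive libraries, with 7 lower and 1, Cd79b, higher by 0.24.

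**Figure D2:**
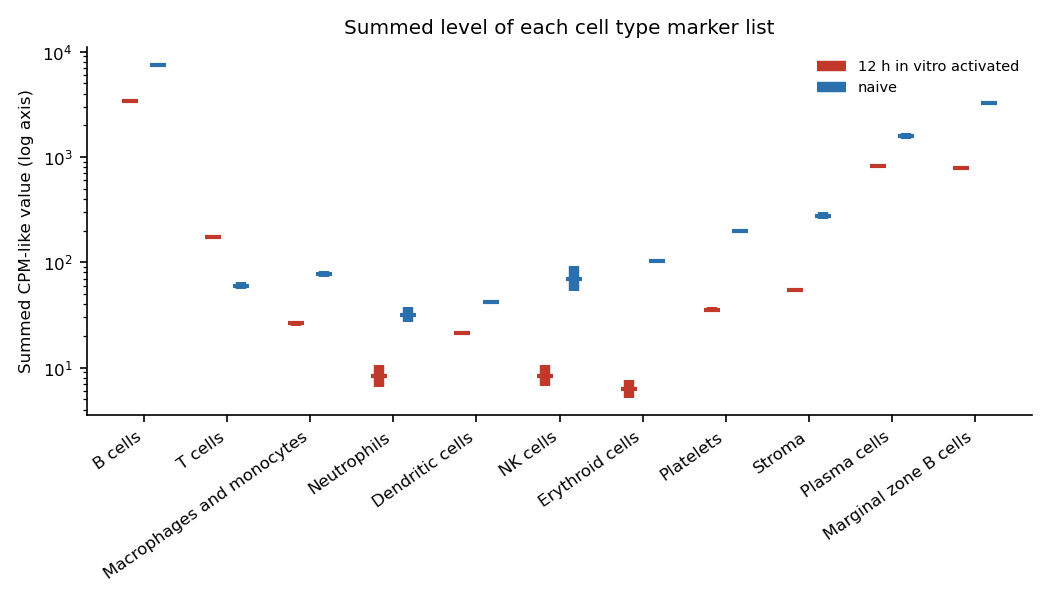
Summed linear level (CPM-like, log axis) of each cell type marker list in 12 h libraries (left of each pair) and naive libraries (right); each bar runs from the lowest to the highest of 3 libraries, with a tick at its middle. The lists of non-B cells other than the T-cell list lie lower at 12 h, and the B-cell sum lies lower at 12 h as well.

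The genes that build ribosomes rose together. All 40 tested members of a list of RNA polymerase I and ribosome biogenesis genes were higher at 12 h (against 41.7% of all tested genes), 36 of them at least 2-fold, with a median difference of 2.31 against 0.03 over all tested genes. Ncl, which encodes nucleolin, an abundant protein of the nucleolus, stood at 12.83, 12.93 and 12.62 in the 12 h libraries, against 9.41, 9.65 and 9.65 in the naive libraries. All 12 h libraries were above all naive libraries, a difference of 3.23 ± 0.09 (adjusted p = 4.11e-18), or 9.36-fold. Nop16, an assembly factor of the large subunit, differed by 3.12 ± 0.08, and Polr1b, the second largest subunit of RNA polymerase I, measured 7.21, 7.38 and 7.34 in the 12 h libraries, against 4.35, 4.28 and 4.53 in the naive libraries, a difference of 2.92 ± 0.10. Cirh1a, the older symbol of Utp4, a component of the small subunit processome, rose by 2.90. The smallest differences were those of Rrn3, the initiation factor of polymerase I (0.78), Taf1d (0.79), Rrs1 (0.86) and Ubtf (0.89). Rrn3, Taf1d and Ubtf belong to the initiation machinery of the polymerase. Against 4 h, 20 of the 40 members were higher and 2 lower at 12 h, beside 34.6% and 27.2% of all tested genes. Against 24 h, 25 were higher and 2 lower, beside 34.8% and 22.5%.

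Promoters of this list are shown because its members moved together. In RefSeq windows of 300 bases, from 250 before to 50 after the start on the gene's strand (GRCm38.p6, the C57BL/6J reference and not BALB/c), the E-box CACGTG, a palindrome bound by MYC with MAX and by other basic helix-loop-helix factors, was found in 7 of 34 list members with a window (20.6%), against 12.1% of tested genes and 8.09% of all genes with a window. In the 150 bases nearest the start the shares were 20.6% of members and 7.82% of tested genes, and for the looser CANGTG, which contains CACGTG, 58.8% and 44.0% in the full window. The mitochondrial ribosomal protein genes, described below, all rose as well, and CACGTG was found in 5 of 45 of them (11.1%), with 4.44% in the nearest 150 bases. Capitals mark CACGTG in Nop2 (chr6:125131633-125131932, plus strand), an RNA methyltransferase of the large subunit, in Utp20 (chr10:88826765-88827064, minus strand), a processome component, and in Cirh1a (chr8:106893390-106893689, plus strand). A match describes letters only. Nop2 rose by 2.75 ± 0.08, Utp20 by 2.56 ± 0.11 and Cirh1a by 2.90 ± 0.09.
Nop2: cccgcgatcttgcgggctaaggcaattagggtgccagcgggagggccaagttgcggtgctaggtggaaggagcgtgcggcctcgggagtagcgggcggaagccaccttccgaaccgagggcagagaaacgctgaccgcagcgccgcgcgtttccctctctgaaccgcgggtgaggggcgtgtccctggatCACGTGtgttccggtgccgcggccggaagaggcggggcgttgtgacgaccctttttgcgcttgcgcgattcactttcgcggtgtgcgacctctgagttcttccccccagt
Utp20: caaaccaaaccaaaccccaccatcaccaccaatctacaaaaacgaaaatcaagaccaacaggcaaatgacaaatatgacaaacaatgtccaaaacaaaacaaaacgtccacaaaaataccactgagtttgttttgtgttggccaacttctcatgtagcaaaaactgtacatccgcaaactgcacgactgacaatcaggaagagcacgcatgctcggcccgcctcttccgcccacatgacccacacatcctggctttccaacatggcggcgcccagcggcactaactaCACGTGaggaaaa
Cirh1a: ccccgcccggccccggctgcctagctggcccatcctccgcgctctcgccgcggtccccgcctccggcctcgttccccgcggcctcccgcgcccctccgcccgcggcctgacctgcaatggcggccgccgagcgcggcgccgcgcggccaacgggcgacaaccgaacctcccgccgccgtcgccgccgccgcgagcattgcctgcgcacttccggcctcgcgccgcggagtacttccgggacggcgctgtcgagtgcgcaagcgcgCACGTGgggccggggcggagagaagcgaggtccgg

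MYC drives such genes in many growing cells. MYC protein was not measured, and its part in these rises was not tested. Myc stood at 8.63, 8.55 and 8.49 in the 12 h libraries, against 9.40, 9.19 and 9.17 in the naive libraries, and fell by 0.70 ± 0.10 (adjusted p = 6.4e-07) without overlap of the groups. Of 11 tested genes of the MYC network, 9 fell and none rose, with a median difference of -1.04. Among them were the repressors that share MYC's partner, Mxd1 (-2.72), Mxd4 (-1.90), Mxi1 (-1.40) and Mnt (-1.35). Mycl1, a MYC paralog, fell as well (-2.31, or -0.87 with 1 CPM added). The partner itself, Max, differed by 0.09 and did not pass the test.

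The cytosolic ribosomal protein genes moved far less than the genes that assemble ribosomes. Of 62 tested members 40 rose and 8 fell, with a median difference of 0.27, and 3 rose at least 2-fold. Those were Rpl34 (1.82), Rps2 (1.27) and Rpl30 (1.06), genes with near-identical copies in the genome with which reads could be shared. At the other end lay Rps19 (-0.36) and Rps15 (-0.25). Translation factors rose in 33 of 41 cases and fell in 3, with a median of 1.37. Eif5a, the hypusine-bearing elongation factor, rose by 2.26 ± 0.06, Eif2s1, the alpha subunit of initiation factor eIF2, by 2.25 ± 0.08, and Eif4a1, the main cap-complex helicase, by 1.96 ± 0.06, whereas its paralog Eif4a2 differed by -0.03 and did not pass. Of 22 enzymes and partners that charge tRNAs 21 rose and none fell (median 1.61), from Qars (0.58) to Iars (2.61). Vars, for valine, differed by -0.03 and did not pass.

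Protein folding, degradation and mitochondria followed the same direction. Of 37 tested proteasome genes 34 rose (median 1.55), led by the lid subunit Psmd7 (2.43 ± 0.05) and the activator Psme2 (2.28 ± 0.05). Psmb9 fell by 1.34 ± 0.06 and Psmb10 by 1.18 ± 0.08, and the remaining catalytic subunit of the immunoproteasome, Psmb8, differed by -0.04 and did not pass. Cytosolic chaperones rose in 25 of 30 cases (median 1.55), with Hsp90ab1, the constitutive HSP90, at 13.27, 13.35 and 13.26 in the 12 h libraries, against 10.91, 10.92 and 10.90 in the naive libraries, a difference of 2.38 ± 0.07 without overlap. The heat-inducible Hspa1a, whose copy Hspa1b can share its reads, fell by 2.37 ± 0.39 (-0.61 with 1 CPM added). Its means were under 1 CPM in both groups. Dnajb1, another heat-shock gene, fell by 0.60 ± 0.07. Mitochondrial chaperones and import genes rose in 29 of 30 cases (median 1.60). Hspd1, the matrix chaperonin HSP60, measured 10.50, 10.49 and 10.50 in the 12 h libraries, against 7.21, 7.35 and 7.39 in the naive libraries. The 12 h values lay far above the naive values, a difference of 3.18 ± 0.07 (adjusted p = 2.92e-20), and the outer membrane channel gene Tomm40 rose by 2.43 ± 0.07.

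All 50 mitochondrial ribosomal protein genes rose, with a median of 1.28 and a range from 0.28 for Mrpl10 to 3.23 for Mrps6. All 50 were also higher at 12 h than at 4 h, a comparison in which 34.6% of all tested genes were higher and 27.2% lower. Complex I genes rose in 30 of 36 cases (median 0.78) and genes of ATP synthase with complexes III and IV in 33 of 35 (median 0.96), with Uqcrq of complex III at 1.66 and Atp5b, the catalytic subunit of ATP synthase, at 1.55. All 35 genes of ATP synthase and complexes III and IV were higher at 12 h than at 4 h. TCA cycle genes rose in 26 of 31 cases (median 0.64), led by Sdhd (1.94) and Idh3a (1.27), and Pcx, which makes oxaloacetate from pyruvate, fell by 1.30 ± 0.15. Complex I subunits Ndufb11 and Ndufa6 fell, by 0.42 and 0.30.

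**Figure D3:**
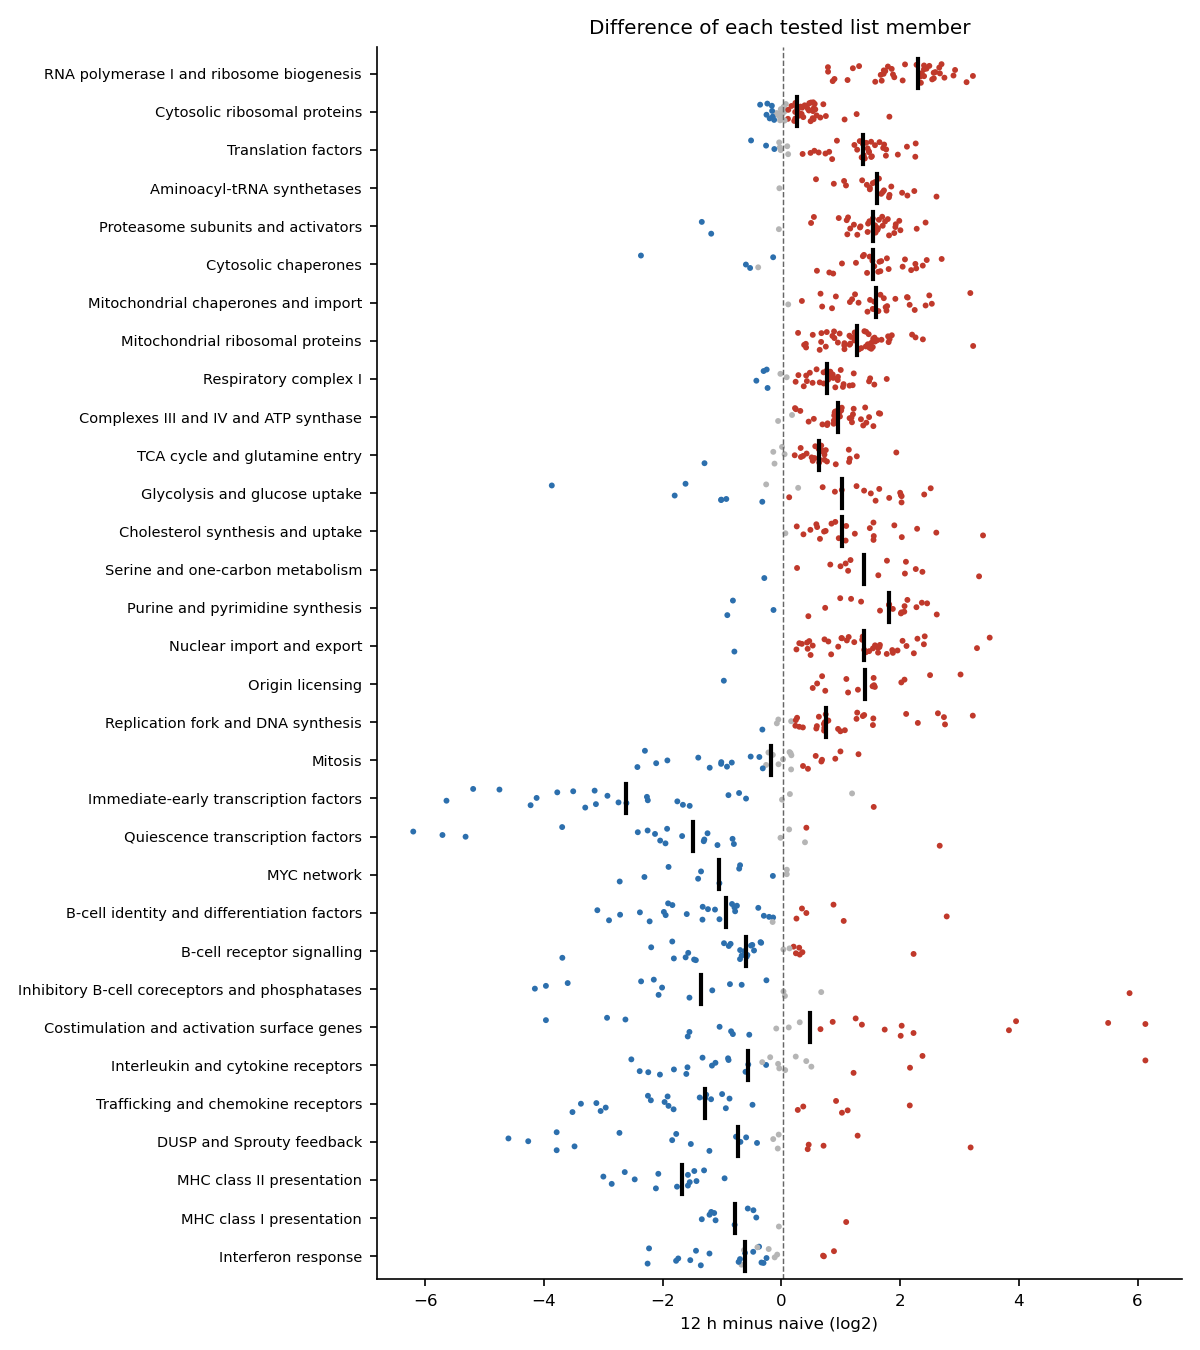
Difference between 12 h and naive means (log2) for each tested member of 32 gene lists, 1 row per list, with red for members that rose, blue for members that fell and grey for members past neither test; the black bar is the list's median and the dashed line the median of all tested genes (0.03). Ribosome biogenesis (2.31), purine and pyrimidine synthesis (1.82) and mitochondrial import (1.60) lie to the right, and immediate-early genes (-2.61), MHC class II genes (-1.67) and quiescence factors (-1.49) to the left.

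Glucose metabolism showed opposite changes among isoforms. Of 25 tested glycolysis and glucose uptake genes 16 rose and 7 fell (median 1.02). The hexokinase gene Hk2 measured 5.75, 5.85 and 5.84 in the 12 h libraries, against 3.78, 3.88 and 3.78 in the naive libraries, higher by 2.0 ± 0.11, while Hk1 measured 5.63, 5.74 and 5.70 in the 12 h libraries, against 6.82, 6.66 and 6.65 in the naive libraries, lower by 1.02 ± 0.09. Neither gene's groups overlapped. Phosphofructokinase P (Pfkp) rose by 2.41 ± 0.06, lactate dehydrogenase A (Ldha) by 2.02 ± 0.06 and the lactate transporter gene Slc16a1 by 2.01 ± 0.17. Among glucose transporters, Slc2a1 (GLUT1) measured 5.80, 5.82 and 5.71 in the 12 h libraries, against 7.49, 7.41 and 7.28 in the naive libraries. It fell by 1.62 ± 0.15 (adjusted p = 2.5e-09), and Slc2a3 (GLUT3) fell by 1.80 ± 0.06, whereas Slc2a6, a transporter of intracellular membranes, rose by 2.51 ± 0.12. In the pentose phosphate pathway, 6 of 7 genes rose (median 0.70), led by transketolase, Tkt (1.38). In mitochondrial fatty acid oxidation, 12 of 21 genes rose and 7 fell (median 0.38). Cpt1a, the gate for long-chain fatty acids, was the lowest at -2.72, and Cpt2, the partner enzyme inside the mitochondrion, the highest at 1.17.

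Cholesterol synthesis and uptake genes were above naive levels and below those of the neighbouring times. Of 24 tested members 23 rose against naive (median 1.02), 21 were lower than at 4 h and 2 higher (median -1.10), and 23 were lower than at 24 h and 1 higher (median -1.06). In the 24 h comparison, 22.5% of all tested genes were lower and 34.8% higher. The comparisons share the 12 h libraries. Idi1, which isomerizes isopentenyl diphosphate, averaged 1.29 ± 0.30 in naive cells, 5.81 ± 0.13 at 4 h, 4.69 ± 0.04 at 12 h and 5.96 ± 0.17 at 24 h (SD, n = 3). Sqle, the squalene epoxidase gene, averaged 3.97 ± 0.08 in naive cells, 7.93 ± 0.06 at 4 h, 6.58 ± 0.07 at 12 h and 7.45 ± 0.07 at 24 h. The 12 h mean of both genes lay between the naive mean and the other culture times. Insig1, which retains the sterol sensor in the endoplasmic reticulum, differed from naive by 0.07 and did not pass. Genes that export sterol went the other way in 4 of 7 cases. Abcg1 stood at 3.39, 3.41 and 3.30 in the 12 h libraries, against 8.05, 7.98 and 7.88 in the naive libraries and fell by 4.61 ± 0.14, and Abca1 fell by 2.41 ± 0.16. Scarb1, a receptor for high-density lipoprotein, rose by 2.60 ± 0.12. In fatty acid synthesis 8 of 14 rose and 5 fell, with Fads1, a desaturase, at 2.52 and Scd1, another desaturase, at -1.37. Acacb, the acetyl-CoA carboxylase of the mitochondrial surface, was at -1.84 (-1.20 with 1 CPM added).

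Of 21 purine and pyrimidine synthesis genes 18 rose and 3 fell (median 1.82). Gart, which carries several steps of the purine ring, rose by 2.62 ± 0.06. Ctps, which makes CTP, measured 7.34, 7.35 and 7.35 in the 12 h libraries, against 4.83, 4.90 and 4.95 in the naive libraries. The groups were far apart, with a difference of 2.45 ± 0.07, and its paralog Ctps2 fell by 0.91 ± 0.07. Ribonucleotide reductase was split, with the large subunit gene Rrm1 higher by 0.74 ± 0.08 and the S-phase subunit gene Rrm2 lower by 0.82 ± 0.08. In serine and one-carbon metabolism 13 of 14 rose (median 1.40), led by cytosolic serine hydroxymethyltransferase, Shmt1, at 6.62, 6.74 and 6.73 in the 12 h libraries, against 3.26, 3.45 and 3.39 in the naive libraries. The difference was 3.33 ± 0.09 (adjusted p = 1.21e-19). Of 9 tested polyamine genes 5 rose, 1 fell and 3 did not pass (median 0.47). Spermidine synthase, Srm, stood at 8.14, 8.23 and 8.25 in the 12 h libraries, against 5.06, 5.11 and 5.09 in the naive libraries, a difference of 3.12 ± 0.07. Ornithine decarboxylase, Odc1, the entry enzyme of that pathway, rose by 0.58 ± 0.08, and Smox, which oxidizes spermine, fell by 1.05 ± 0.22.

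Amino acid transporters were mixed. Of 15 tested 8 rose and 5 fell, and 12 were lower at 12 h than at 4 h with none higher. Slc7a5, the large neutral amino acid carrier LAT1, averaged 5.83 ± 0.07 in naive cells, 9.10 ± 0.08 at 4 h, 7.89 ± 0.09 at 12 h and 7.81 ± 0.06 at 24 h. Slc1a5, a glutamine carrier, rose by 2.01 ± 0.05 and Slc1a4, a carrier of alanine and serine, by 4.76 ± 0.25 (3.02 with 1 CPM added). Slc38a5 was at the lowest value of the files in all 3 libraries at 12 h, against a naive mean near 1 CPM. Nuclear import and export genes rose in 40 of 41 cases (median 1.40). Nup43, a nuclear pore protein, rose by 3.51 ± 0.11, Rcc1, the exchange factor of the transport GTPase Ran, by 3.29 ± 0.07, and Ran itself by 2.41 ± 0.07. Kpna1, an importin alpha, fell by 0.79 ± 0.09.

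**Figure D4:**
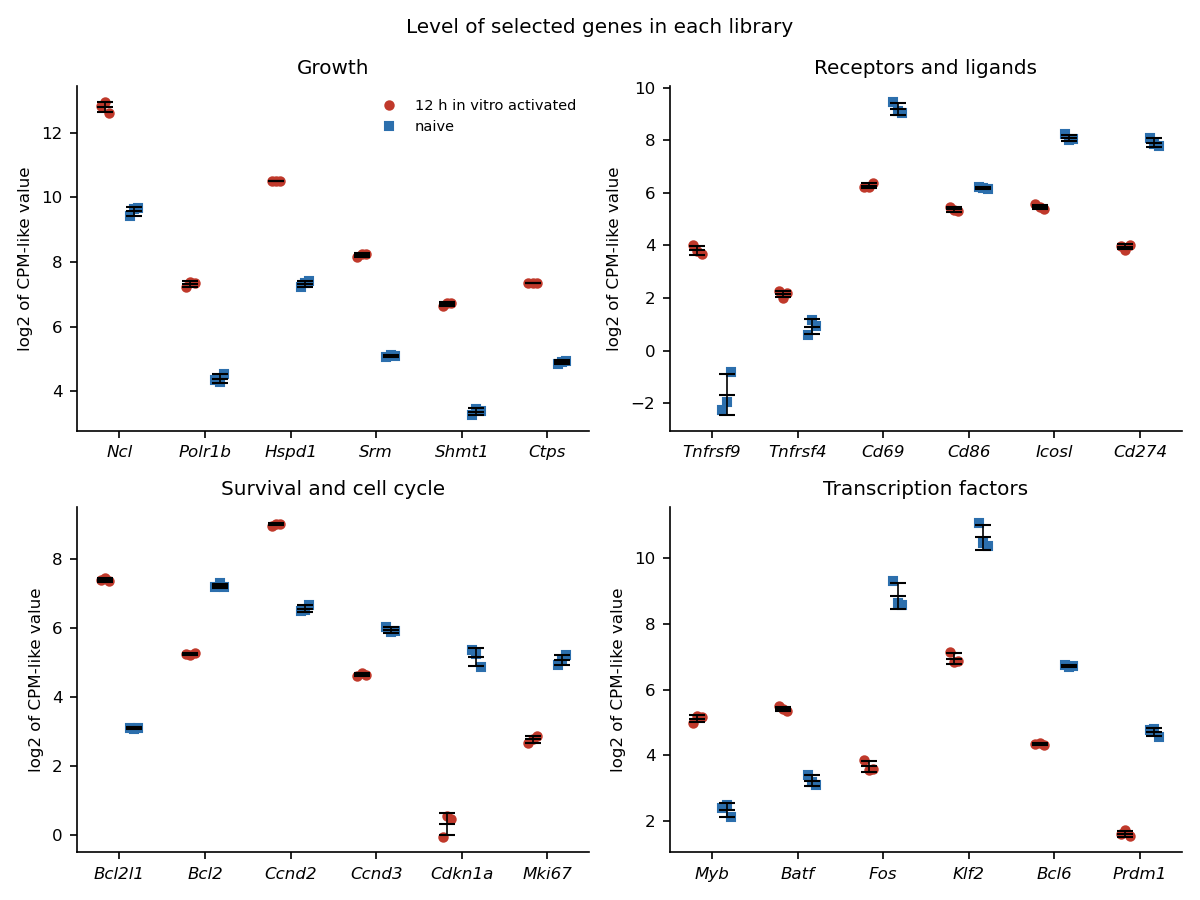
Level (log2) of 24 genes in each library, with 12 h libraries as red circles on the left and naive libraries as blue squares on the right of each pair; horizontal marks and bars are the mean and SD of 3 libraries. The groups of every gene shown are separate, with Ncl, Hspd1, Bcl2l1 and Ccnd2 higher at 12 h and Cd69, Bcl2, Ccnd3 and Cdkn1a lower.

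Of 9 cyclin and kinase genes of the first gap phase, 5 rose and 2 fell (median 0.76). Ccnd2, the D cyclin gene of B-cell activation, measured 8.96, 9.02 and 9.01 in the 12 h libraries, against 6.49, 6.53 and 6.66 in the naive libraries, higher by 2.44 ± 0.15. Ccnd3 measured 4.62, 4.70 and 4.65 in the 12 h libraries, against 6.02, 5.87 and 5.91 in the naive libraries, lower by 1.28 ± 0.07, so the 2 D cyclins changed in opposite directions, each without overlap. Cdk4, their kinase partner, rose by 1.99 ± 0.05 and Ccne1, a cyclin of the entry into S phase, by 1.96 ± 0.11. Of 16 CDK inhibitor and p53 pathway genes 10 fell and 3 rose (median -0.89). Cdkn1a, which encodes the inhibitor p21, stood at -0.04, 0.55 and 0.48 in the 12 h libraries, against 5.36, 5.24 and 4.87 in the naive libraries. The fall was 4.83 ± 0.26 (adjusted p = 5.45e-14), or 28.4-fold. Cdkn1b, for p27, fell by 1.36 ± 0.20 and Cdkn2d, for p19, by 2.60 ± 0.10. The E2F and retinoblastoma families had 3 members higher and 6 lower of 13. E2f1 itself differed by 0.01 and did not pass, E2f2 fell by 1.92 ± 0.08, and the dimerization partner gene Tfdp1 rose by 1.64 ± 0.06.

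Of 16 origin licensing genes 15 rose (93.8%, median 1.41), 11 of them at least 2-fold, and 14 were still below their 24 h level. Orc1, the origin recognition subunit that comes and goes with the cycle, measured 4.09, 4.11 and 3.92 in the 12 h libraries, against 0.80, 1.17 and 1.10 in the naive libraries, a difference of 3.02 ± 0.10. Mcm5, a subunit of the replicative helicase, averaged 6.24 ± 0.01 in naive cells, 6.69 ± 0.03 at 4 h, 8.26 ± 0.02 at 12 h and 9.73 ± 0.06 at 24 h, and Mcm6, another subunit, 5.59 ± 0.04 in naive cells, 6.84 ± 0.01 at 4 h, 8.09 ± 0.04 at 12 h and 10.07 ± 0.02 at 24 h. Both genes were at their highest mean at 24 h. Cdt1, which loads the helicase, was the single member that fell, by 0.97 ± 0.08, and averaged 7.12 ± 0.08 in naive cells, 6.55 ± 0.14 at 4 h, 6.15 ± 0.02 at 12 h and 6.61 ± 0.02 at 24 h. Of 34 replication fork genes 30 rose against naive (median 0.75) and all 34 were lower than at 24 h (median -1.81). Gins1, a part of the active helicase, rose by 2.76 ± 0.11, Pole2, a polymerase epsilon subunit, by 2.64 ± 0.14, Pcna, the sliding clamp, by 1.54 ± 0.06, and Uhrf1, which reads hemimethylated DNA, by 2.10 ± 0.05.

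Promoters of the helicase genes are shown for 2 forms of the E2F site, searched on both strands. A match of one form is not a match of the other, but Mcm3 held both, so the 2 counts of licensing genes share a member. TTTGGCGC was found in 4 of 14 licensing genes with a window (28.6%), against 1.16% of tested genes, and in 3 of 28 replication fork genes (10.7%). TTTCCCGC was found in 4 of 14 licensing genes (28.6%), against 2.53% of tested genes, and in 5 of 28 replication fork genes (17.9%). Capitals mark TTTGGCGC or its reverse complement. Mcm6 (chr1:128359656-128359955, minus strand) held it at 2 places, beginning 110 and 47 bases before the start, Mcm5 (chr8:75109259-75109558, plus strand) at 149 bases before it, and Mcm3 (chr1:20820263-20820562, minus strand) within the transcript. Mcm6 rose by 2.50 ± 0.05, Mcm5 by 2.02 ± 0.05 and Mcm3 by 1.55 ± 0.05. Cdt1, which fell, also holds TTTGGCGC in its window, so the match was not limited to genes that rose.
Mcm6: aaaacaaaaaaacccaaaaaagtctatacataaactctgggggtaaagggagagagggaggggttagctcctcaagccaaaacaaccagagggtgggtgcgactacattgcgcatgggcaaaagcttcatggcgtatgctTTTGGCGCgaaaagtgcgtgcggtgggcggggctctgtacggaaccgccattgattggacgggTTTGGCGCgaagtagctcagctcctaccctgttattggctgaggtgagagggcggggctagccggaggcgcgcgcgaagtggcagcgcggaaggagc
Mcm5: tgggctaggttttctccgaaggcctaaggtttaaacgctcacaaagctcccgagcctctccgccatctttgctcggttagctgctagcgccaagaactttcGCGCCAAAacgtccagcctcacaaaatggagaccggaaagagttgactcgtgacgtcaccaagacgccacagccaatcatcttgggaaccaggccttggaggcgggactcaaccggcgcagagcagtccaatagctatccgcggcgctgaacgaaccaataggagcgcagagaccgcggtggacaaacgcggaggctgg
Mcm3: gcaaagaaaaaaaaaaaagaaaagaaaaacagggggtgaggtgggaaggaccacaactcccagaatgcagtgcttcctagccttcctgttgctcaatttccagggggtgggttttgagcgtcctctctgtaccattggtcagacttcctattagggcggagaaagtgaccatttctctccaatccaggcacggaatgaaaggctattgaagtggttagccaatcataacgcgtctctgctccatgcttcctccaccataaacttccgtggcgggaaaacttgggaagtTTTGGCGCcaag

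Of 30 mitosis genes 8 rose and 13 fell against naive (median -0.18), and 28 were lower than at 24 h with none higher (median -3.84). Mki67, which encodes the proliferation antigen Ki-67, stood at 2.66, 2.80 and 2.87 in the 12 h libraries, against 4.93, 5.08 and 5.23 in the naive libraries and fell by 2.30 ± 0.11 (adjusted p = 9.69e-15), while its 24 h difference was -5.62 (12 h minus 24 h). Ccnb2, a mitotic cyclin gene, fell by 2.43 ± 0.11 and Cdc25b, a phosphatase that triggers mitosis, by 2.11 ± 0.06. The mitotic kinase gene Plk1 averaged 1.08 ± 0.05 in naive cells, 0.20 ± 0.17 at 4 h, 0.87 ± 0.18 at 12 h and 4.97 ± 0.17 at 24 h, and its 12 h and naive means differed by -0.22, which did not pass. Bub3, a checkpoint protein with wider roles, rose by 1.30 ± 0.07, the largest rise of the list. Ezh2, the methyltransferase of the Polycomb complex, rose by 2.18 ± 0.06, and Tet1, which oxidizes methylcytosine, fell by 2.61 ± 0.81 (-1.46 with 1 CPM added), in a list of 14 with 7 higher and 5 lower.

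**Figure D5:**
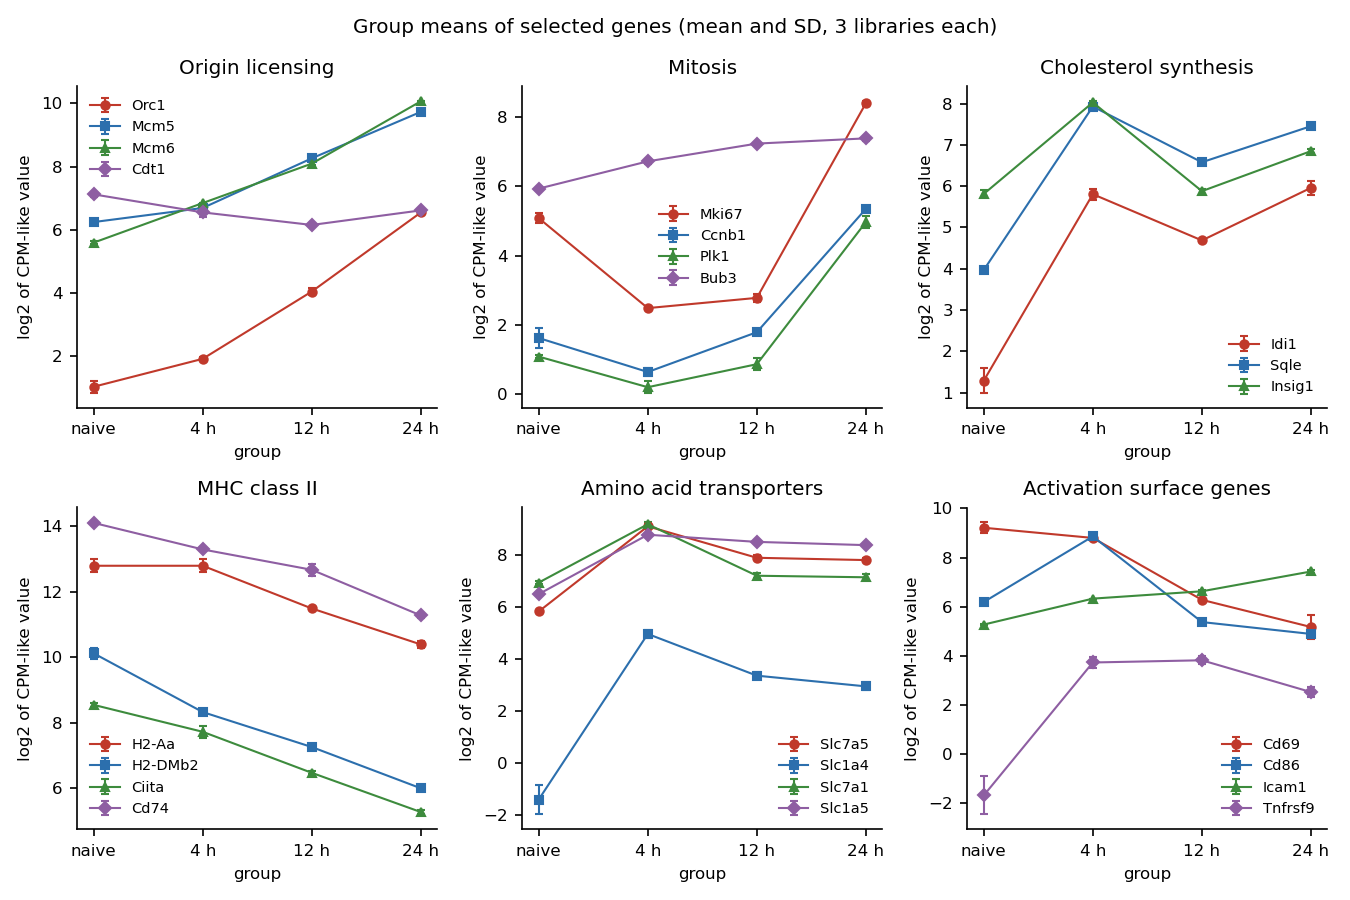
Group means (log2, bars are the SD of 3 libraries) of selected genes in naive cells and at 4 h, 12 h and 24 h of in vitro activation. Mcm5 and Mcm6 climb at each time, Mki67 and Plk1 are high at 24 h alone among culture times, Idi1 and Sqle dip at 12 h, and MHC class II genes are lower at 12 h than in naive cells.

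Immediate-early transcription factors were far lower at 12 h than in naive cells. Of 25 tested, 21 fell (84.0%, against 39.2% of all tested genes), 18 of them at least 2-fold, with a median difference of -2.61. Fos, a partner in the AP-1 dimer, stood at 3.84, 3.54 and 3.59 in the 12 h libraries, against 9.32, 8.64 and 8.59 in the naive libraries. It fell by 5.19 ± 0.36 (adjusted p = 1.54e-10), 36.6-fold, and Fosb fell by 5.64 ± 0.27. Jun fell by 4.12 ± 0.32, Atf3, a stress-induced partner, by 4.75 ± 0.35, and Nr4a1, the orphan receptor gene that reports antigen receptor signals, by 3.78 ± 0.15. Egr2 was the single member that rose, by 1.55 ± 0.21, while Egr1 fell by 0.89 ± 0.24 and Egr3 differed by 0.01 and did not pass. Compared with 4 h, 19 members were lower at 12 h and 1 higher. Against 24 h, 9 of 25 were higher and 3 lower at 12 h, a comparison in which 34.8% of all tested genes were higher and 22.5% lower. Batf, an AP-1 factor without a transactivation domain, measured 5.48, 5.39 and 5.34 in the 12 h libraries, against 3.40, 3.18 and 3.10 in the naive libraries, higher by 2.18 ± 0.10.

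Quiescence factors fell as a group, with 17 of 22 lower and 2 higher (median -1.49). Klf2, which holds lymphocytes in quiescence and sustains S1pr1, stood at 7.14, 6.84 and 6.86 in the 12 h libraries, against 11.07, 10.47 and 10.37 in the naive libraries. The groups were far apart, with a fall of 3.69 ± 0.21 (adjusted p = 3.51e-12). Foxo1 fell by 2.04 ± 0.05, Tob1, an antiproliferative gene, by 2.42 ± 0.13, and Sesn3, a FOXO target that restrains mTORC1, by 2.13 ± 0.10. Slfn2, which is required for lymphocyte quiescence in mice, rose by 2.67 ± 0.20, against the direction of the list. Foxp1, another quiescence factor, differed by -0.02 and did not pass.

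Factors that define B-cell identity and fate were mostly lower. Of 30 tested 23 fell and 6 rose (median -0.94). Bcl6, the master repressor of germinal center cells, stood at 4.34, 4.36 and 4.31 in the 12 h libraries, against 6.76, 6.68 and 6.72 in the naive libraries and fell by 2.38 ± 0.17. Prdm1, which drives plasma cell differentiation, stood at 1.59, 1.71 and 1.52 in the 12 h libraries, against 4.76, 4.80 and 4.56 in the naive libraries and fell by 3.10 ± 0.19. Neither of these opposing regulators was thus raised at 12 h, and the groups of neither gene overlapped. Irf4, which is needed for both fates, fell by 0.75 ± 0.26. Myb, a factor of proliferating lymphoid cells, measured 4.98, 5.19 and 5.17 in the 12 h libraries, against 2.39, 2.49 and 2.10 in the naive libraries. It rose by 2.78 ± 0.15 (adjusted p = 5.52e-14), the largest rise of the list, and Ahr, the aryl hydrocarbon receptor, rose by 1.05 ± 0.16. Ebf1 fell by 1.95 ± 0.09 and Ets1, which restrains plasma cell formation, by 2.22 ± 0.09, while Xbp1 differed by -0.15 and did not pass.

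Surface genes of naive follicular B cells fell in 16 of 18 cases (median -1.83). Cr2, the complement receptor CD21, stood at 6.48, 6.34 and 6.50 in the 12 h libraries, against 9.97, 10.19 and 10.22 in the naive libraries. It fell by 3.69 ± 0.13, without overlap. Fcer2a, the low-affinity IgE receptor CD23, fell by 1.85 ± 0.12, and Cxcr5, the receptor that leads B cells to follicles, by 2.25 ± 0.23. Tnfrsf13c, the BAFF receptor, was the member that rose, by 0.58 ± 0.05. Of 25 trafficking genes 19 fell and 6 rose (median -1.28). S1pr1, the receptor for exit from lymphoid tissue, fell by 2.96 ± 0.39, Cxcr4, the CXCL12 receptor, by 3.12 ± 0.33, and Cnr2, a cannabinoid receptor of B cells, by 3.38 ± 0.15. Cxcr3, a receptor of inflammatory homing, rose by 1.12 ± 0.26 (0.59 with 1 CPM added), and Rgs16, which dampens chemokine receptor signals, by 2.16 ± 0.31. The summed markers of marginal zone B cells, which share Cr2 and S1pr3 with these lists, were lower at 12 h as given above.

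The antigen receptor pathway was lower in 22 of 30 genes and higher in 6 (median -0.60). Cd79a, a signalling chain of the receptor, stood at 9.56, 9.53 and 9.50 in the 12 h libraries, against 11.48, 11.25 and 11.38 in the naive libraries, a fall of 1.84 ± 0.06, while its partner Cd79b stood at 9.89, 9.85 and 9.80 in the 12 h libraries, against 9.64, 9.57 and 9.60 in the naive libraries, a rise of 0.24 ± 0.06. The paired chains changed in opposite directions, each without overlap. Syk fell by 1.47 ± 0.09, Malt1, a protease in the path to NF-kB, by 1.57 ± 0.08, and Nfatc2 by 2.19 ± 0.12. Btk rose by 0.35 ± 0.05 and Vav3, an exchange factor, by 2.23 ± 0.26. Inhibitory coreceptors and phosphatases fell in 12 of 16 cases (median -1.36). Lair1, a collagen receptor, fell by 4.15 ± 0.38 (-2.68 with 1 CPM added), Cd274, the ligand PD-L1, by 3.97 ± 0.22, and Cd22 by 2.15 ± 0.08. Pdcd1, the gene of PD-1 itself, measured 4.81, 4.86 and 4.49 in the 12 h libraries, against -0.96, -1.19 and -1.28 in the naive libraries. It was the single member that rose, by 5.86 ± 0.24 (adjusted p = 1.89e-16), with the naive libraries under 1 CPM. Feedback genes of the MAP kinases were lower in 14 of 22 cases and higher in 5 (median -0.73), with Dusp5, an ERK phosphatase, at -4.26, Dusp1 at -3.79 and Dusp14 at 3.19.

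Costimulatory and activation genes were divided, 12 higher and 9 lower of 24 tested (median 0.48). Tnfrsf9, the receptor 4-1BB, stood at 4.0, 3.78 and 3.67 in the 12 h libraries, against -2.28, -1.97 and -0.81 in the naive libraries. The groups were far apart, with a rise of 5.50 ± 0.34 (adjusted p = 4.21e-13), or 3.50 with 1 CPM added. Tnfrsf8 (CD30) rose by 3.83 ± 0.50 (0.92 with 1 CPM added), Tnfrsf4 (OX40) by 1.25 ± 0.23 (0.92) and its ligand Tnfsf4 by 2.03 ± 0.45 (1.30). Tfrc, the transferrin receptor, rose by 2.01 ± 0.14, and the adhesion genes Cd44 and Icam1 by 1.74 ± 0.08 and 1.36 ± 0.06. Icosl, the ligand of ICOS on T cells, measured 5.57, 5.46 and 5.40 in the 12 h libraries, against 8.24, 8.01 and 8.06 in the naive libraries. It fell by 2.63 ± 0.14, Cd40 fell by 1.04 ± 0.08, and Cd80, the paralog of Cd86, differed by 0.31 and did not pass. Cd86 averaged 6.19 ± 0.04 in naive cells, 8.86 ± 0.10 at 4 h, 5.37 ± 0.09 at 12 h and 4.89 ± 0.05 at 24 h, so its highest mean was at 4 h. Cd69 averaged 9.21 ± 0.23 in naive cells, 8.80 ± 0.07 at 4 h, 6.28 ± 0.10 at 12 h and 5.17 ± 0.48 at 24 h. Cd70 was at the lowest value in all naive libraries and at -2.31, -1.65 and -2.72 at 12 h, which is below 1 CPM.

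Among secreted factors, 5 of 17 tested cytokine and chemokine genes rose and 9 fell (median -0.78). Ccl22, a chemokine for CCR4-bearing T cells, stood at 5.92, 5.60 and 5.63 in the 12 h libraries, against -1.28, -1.60 and -1.67 in the naive libraries, and Csf1, the macrophage growth factor, at 6.08, 6.01 and 5.56 in the 12 h libraries, against 2.24, 2.50 and 1.95 in the naive libraries, a rise of 3.66 ± 0.25. Il10, an inhibitory cytokine, measured -2.17, -1.62 and -2.44 in the 12 h libraries, against 1.16, 2.03 and 2.0 in the naive libraries. It fell by 3.80 ± 0.54 (-1.80 with 1 CPM added), Lta, lymphotoxin alpha, by 3.46 ± 0.16, Ltb by 3.08 ± 0.13 and Ccl5 by 3.94 ± 0.45. Il6 and Tnf differed by 0.04 and 0.01 and did not pass. Of 27 cytokine receptor genes 15 fell and 4 rose (median -0.56). The risers were Il2ra, both interleukin-1 receptors, Il1r1 (2.38, or 0.96 with 1 CPM added) and the decoy Il1r2 (2.17), and Il15ra (1.22). Il2ra, the alpha chain of the IL-2 receptor, stood at 8.18, 8.08 and 8.10 in the 12 h libraries, against 2.11, 2.02 and 1.84 in the naive libraries. Il2ra was the largest, with a difference of 6.13 ± 0.25. The chains that pair with it did not follow, as Il2rb fell by 2.24 ± 0.29 and Il2rg by 0.26 ± 0.07. Il10ra fell by 2.39 ± 0.19, Il4ra by 1.33 ± 0.08 and Ifngr1 by 2.05 ± 0.06. Downstream, Stat5a rose by 2.19 ± 0.05 and its paralog Stat5b fell by 0.45 ± 0.05, and of the feedback inhibitors Socs3, at 2.82, 3.19 and 2.94 in the 12 h libraries, against 8.44, 8.06 and 7.72 in the naive libraries, fell by 5.09 ± 0.23 and Socs1 by 2.62 ± 0.15.

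NF-kB genes fell in 15 of 23 cases and rose in 4 (median -0.34). Nfkb1, the p105 and p50 gene, rose by 1.05 ± 0.05 and the inhibitor Nfkbie by 1.63 ± 0.07. Tnfaip3, the deubiquitinase A20, fell by 2.74 ± 0.14, Birc3 by 1.78 ± 0.06 and Rel by 0.46 ± 0.15, and Rela differed by -0.04 and did not pass. Of 20 Toll-like receptor genes and partners 13 fell and 3 rose (median -0.83). Tlr9, the receptor for unmethylated DNA, fell by 1.72 ± 0.16 and Tlr1 by 1.22 ± 0.09, while the adaptor Myd88 rose by 0.92 ± 0.04. Tlr4 and Tlr7 differed by -0.01 and -0.28 and did not pass.

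Survival genes changed in both directions. Bcl2l1, which encodes BCL-XL, stood at 7.38, 7.44 and 7.35 in the 12 h libraries, against 3.12, 3.07 and 3.10 in the naive libraries. Bcl2 stood at 5.24, 5.23 and 5.26 in the 12 h libraries, against 7.17, 7.29 and 7.18 in the naive libraries. The groups were far apart for each, with a rise of 4.29 ± 0.09 (adjusted p = 1.18e-20), 19.6-fold, for Bcl2l1 and a fall of 1.97 ± 0.11 (adjusted p = 6.53e-14) for Bcl2. The 3 measured copies of Bcl2a1, a near-identical family among which reads could be split, rose by 2.46, 2.05 and 0.98. With 1 CPM added, the first of these, Bcl2a1a, rose by 0.87. Mcl1 differed by 0.06 and did not pass. Of 8 tested pro-apoptotic members 4 rose and 4 fell (median 0.14), and with the 3 members of low level included the median was -0.29. Bid rose by 1.80 ± 0.09 and Bax by 0.69 ± 0.06, while Pmaip1 (NOXA) fell by 2.37 ± 0.17, Bbc3 (PUMA) by 2.08 ± 0.28 and Bmf by 2.02 ± 0.12.

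The MHC class II system was lower throughout. All 14 tested genes fell (against 39.2% of all tested genes), 13 of them at least 2-fold (median -1.67). The peptide-binding chain gene H2-Aa stood at 11.49, 11.52 and 11.47 in the 12 h libraries, against 12.92, 12.57 and 12.89 in the naive libraries. Every 12 h library lay below every naive library, a fall of 1.30 ± 0.10 (adjusted p = 1.16e-10). Ciita, the transactivator of these genes, measured 6.53, 6.45 and 6.45 in the 12 h libraries, against 8.61, 8.48 and 8.57 in the naive libraries and fell by 2.07 ± 0.09. Cd74, the invariant chain, fell by 1.43 ± 0.09. The peptide exchange genes fell more, with H2-DMa lower by 2.47, H2-DMb1 by 2.64, H2-DMb2, whose reads H2-DMb1 can share, by 2.86 and H2-Oa, of the inhibitor of exchange, by 3.0. At 12 h, 11 of the 14 were lower than at 4 h and 2 higher (median -1.05), and all 14 were higher than at 24 h (median 1.05). H2-Aa averaged 12.79 ± 0.19 in naive cells, 12.79 ± 0.19 at 4 h, 11.49 ± 0.03 at 12 h and 10.39 ± 0.11 at 24 h. Its deposited values in naive and 4 h libraries of the same number are identical, where it held the same rank among the tested genes in both. Of markers of macrophages and dendritic cells, which also present on class II, 11 of 13 and 4 of 6 tested fell. Emr1, a macrophage marker, rose, with means of 3.72 at 12 h and 1.84 in naive libraries. Zbtb46, a dendritic cell marker, rose as well, with means of 3.60 at 12 h and 1.48 in naive libraries. The 14 class II genes summed to 14300 to 15700 CPM at 12 h and 40500 to 44500 CPM in naive libraries. The part of macrophages and dendritic cells in the class II falls was not tested. The reads of BALB/c cells were aligned to a genome of another MHC haplotype, for both groups alike.

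Class II promoters are shown because all members fell together. The Y box, searched as CTGATTGG on both strands, was found in 3 of 9 list members with a window (33.3%), against 6.76% of tested genes and 4.70% of all genes. Capitals mark it in H2-Aa (chr17:34287774-34288073, minus strand), 51 bases before the start, in H2-Eb1 (chr17:34305617-34305916, plus strand), 62 bases before it, and in H2-Oa (chr17:34092129-34092428, plus strand), 46 bases before it. The 3 genes fell by 1.30 ± 0.10, 1.57 ± 0.07 and 3.0 ± 0.12.
H2-Aa: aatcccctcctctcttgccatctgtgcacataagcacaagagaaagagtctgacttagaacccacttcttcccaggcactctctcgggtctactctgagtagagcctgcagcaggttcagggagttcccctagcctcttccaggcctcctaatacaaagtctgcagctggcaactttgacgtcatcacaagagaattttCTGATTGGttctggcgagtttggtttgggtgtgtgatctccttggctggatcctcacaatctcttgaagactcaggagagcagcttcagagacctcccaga
H2-Eb1: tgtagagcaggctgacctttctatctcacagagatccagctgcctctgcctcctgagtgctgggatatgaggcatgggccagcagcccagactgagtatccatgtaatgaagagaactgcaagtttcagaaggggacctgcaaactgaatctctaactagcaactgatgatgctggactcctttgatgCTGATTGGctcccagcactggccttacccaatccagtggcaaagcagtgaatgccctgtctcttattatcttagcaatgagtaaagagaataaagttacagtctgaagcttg
H2-Oa: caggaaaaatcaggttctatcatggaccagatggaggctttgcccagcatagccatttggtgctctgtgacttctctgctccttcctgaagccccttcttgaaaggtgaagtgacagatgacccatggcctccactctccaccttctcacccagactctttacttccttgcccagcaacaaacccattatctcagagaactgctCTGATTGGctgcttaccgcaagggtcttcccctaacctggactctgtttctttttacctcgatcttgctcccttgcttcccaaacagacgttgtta

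MHC class I genes fell in 9 of 11 cases (median -0.79). B2m, the shared light chain, fell by 0.57 ± 0.07, Tap1, a peptide transporter, by 0.79 ± 0.07, and Nlrc5, the class I transactivator, by 1.21 ± 0.11, while Erap1, a peptide trimmer, rose by 1.09 ± 0.06. Of 25 interferon response genes 16 fell and 3 rose (median -0.61). Irf1 fell by 2.23 ± 0.08 and Irf7 by 1.54 ± 0.14. Lysosome and autophagy genes fell in 20 of 34 cases and rose in 6 (median -0.30), with Tfeb, their transcription factor, at -1.66 and Tfe3, its paralog, at 0.76. Antioxidant genes rose in 16 of 23 cases (median 0.40). Srxn1, sulfiredoxin, measured 0.93, 0.93 and 0.30 in the 12 h libraries, against -2.09, -2.27 and -3.73 in the naive libraries. It was higher by 3.42 ± 0.66 (1.19 with 1 CPM added), and Nqo1, a quinone reductase, by 3.19 ± 0.42 (0.98 with 1 CPM added). Nfe2l2, the gene of their regulator NRF2, fell by 1.23 ± 0.16 and Cat, catalase, by 1.45 ± 0.06.

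Unfolded protein response genes, 14 higher and 9 lower of 28 (median 0.15), and mTORC1 genes, 9 higher and 10 lower of 26 (median -0.04), showed no common direction. Hspa5, the main chaperone of the endoplasmic reticulum, differed by 0.10 and did not pass, and Dnajb9, its partner, fell by 2.86 ± 0.16. Ddit4, an inhibitor of mTORC1, fell by 2.15 ± 0.15, and Sesn2, another, by 1.95 ± 0.09. Hypoxia genes fell in 11 of 18 cases and rose in 4 (median -0.48), with Vegfa at -2.16 and Hif1a at -0.29.

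The largest rises among genes of at least 10 CPM were Ccl22 (chr8:94745684-94751388, mm10; 7.24), Tacc2, a centrosomal coiled-coil gene (chr7:130553009-130767705; 6.28), Rnf150 (chr8:82863266-83091271; 6.23), Bcat1, the cytosolic branched-chain aminotransferase (chr6:144993835-145076157; 6.15), and Il2ra (chr2:11642792-11693194; 6.13). They were followed by Pdcd1 (5.86), Dnph1, a nucleotide hydrolase (5.83), Maoa, monoamine oxidase A (5.82), Tnfrsf9 (5.50), Ankrd13b (5.25), Cd63, a tetraspanin (4.84), and Lag3, an inhibitory receptor (4.83). Rnf150 stood at 3.21, 2.98 and 3.88 in the 12 h libraries, against -2.75, -2.36 and -3.51 in the naive libraries. Maoa, on the X chromosome, stood at 3.27, 3.53 and 3.81 in the 12 h libraries, against -2.23, -1.40 and -3.23 in the naive libraries, and Dnph1 at 3.81, 3.93 and 3.91 in the 12 h libraries, against -2.66, -1.91 and -1.29 in the naive libraries. Apart from Bcat1 and Il2ra, the 12 genes had naive means under 1 CPM, so the size of these folds rests on low naive values. None of their groups overlapped, which the rule that named them required. With 1 CPM added to every value, the 12 differences were 3.10 to 5.81, in place of 4.83 to 7.24.

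The largest falls were those of Aqp1, a water channel (chr6:55336299-55348555; -6.75), Klf4 (chr4:55527137-55532475; -6.2), Hes1, a Notch target (chr16:30065357-30067796; -5.71), Slc4a1, the red cell anion exchanger (-5.70), Fosb (-5.64) and Dmpk, a myotonic dystrophy kinase (chr7:19083646-19093821; -5.45). Irs2, an insulin receptor substrate (-5.32), Osgin1 (-5.27), Plk2, a polo-like kinase (-5.25), Thbd, thrombomodulin (-5.20), Fos (-5.19) and Dmwd (chr7:19076112-19082778; -5.15) followed. Dmwd lies next to Dmpk on chromosome 7, and the pair fell by 5.15 ± 0.15 and 5.45 ± 0.39. Thbd stood at -0.43, -0.52 and -0.53 in the 12 h libraries, against 4.85, 4.73 and 4.53 in the naive libraries, and Plk2 at 3.41, 3.48 and 3.60 in the 12 h libraries, against 9.08, 8.64 and 8.53 in the naive libraries. Each naive library was far above each 12 h library, and groups without overlap were required of all 12 falls by the rule that named them. With 1 CPM added, the 12 falls were -5.95 to -3.20, in place of -6.75 to -5.15. Aqp1 and Slc4a1 are also red cell genes. The erythroid marker sum given above was lower at 12 h as well, but Slc4a1 is a member of that list, so the sum is not separate from it.

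The 12 h cells were also compared with the other culture times. Compared with 4 h, 7351 genes changed (61.9%; 4114 higher and 3237 lower), 1442 of them at least 2-fold (12.1%), and compared with 24 h, 6812 changed (57.3%; 4133 higher and 2679 lower), 1449 at least 2-fold (12.2%). Correlations across genes were 0.9607 to 0.9641 between 12 h and 4 h libraries and 0.9556 to 0.9585 between 12 h and 24 h libraries. Of the 2304 genes at least 2-fold above naive at 12 h, 448 (19.4%) were above 4 h and below 24 h, 574 (24.9%) were above 4 h and past no test against 24 h, 404 (17.5%) passed neither test, and 257 (11.2%) were above both times. Of the 2320 genes at least 2-fold below naive, 626 (27.0%) were below 4 h and above 24 h, 385 (16.6%) below 4 h and past no test against 24 h, and 440 (19.0%) passed neither.

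A few genes had their extreme at 12 h, at least 2-fold beyond naive, 4 h and 24 h alike, 35 of them lower and 6 higher. Of the 35, 18 were under 1 CPM in all 4 groups and 8 were at the lowest value of the files at 12 h, and of the 6 higher genes 1 was under 1 CPM in all 4 groups. The genes named next had means above 1 CPM in at least 1 group. Cfp, which encodes the complement protein properdin, averaged 6.33 ± 0.03 in naive cells, 2.99 ± 0.08 at 4 h, 1.70 ± 0.02 at 12 h and 2.99 ± 0.11 at 24 h. Vim, the intermediate filament vimentin, averaged 8.36 ± 0.03 in naive cells, 6.74 ± 0.04 at 4 h, 5.47 ± 0.04 at 12 h and 6.68 ± 0.10 at 24 h, and Ccl3, a chemokine, 4.07 ± 0.23 in naive cells, 4.23 ± 0.33 at 4 h, 2.02 ± 0.27 at 12 h and 4.80 ± 0.12 at 24 h. Each fell below both neighbouring times by more than 2-fold. Of the 6 higher genes, Crisp3, a secreted cysteine-rich protein gene, averaged 2.78 ± 0.15 in naive cells, 3.32 ± 0.18 at 4 h, 4.53 ± 0.21 at 12 h and 3.06 ± 0.15 at 24 h, and Trim16, an E3 ligase gene, -0.68 ± 0.17 in naive cells, -0.67 ± 0.78 at 4 h, 2.05 ± 0.38 at 12 h and 0.17 ± 0.24 at 24 h. These 5 genes were picked after their values were seen.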

How the data were processed

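RNA was measured in 24 libraries of BALB/c splenic B cells, 3 in each of 8 groups, with a stranded mRNA kit and paired reads, per the labels' protocols. The submitters' processing notes name STAR 2.6.0c with mm10, featureCounts from Subread 1.6.2, cutadapt 1.8.3, FastQC 0.11.5 and limma; their settings are not given in the sources used here. Each deposited value is a log2 of a CPM-like quantity, judging by the values, whose linear sums were 990678 to 1008194 per library. The libraries share nearly 1 distribution, and a gene's mean is the same over each replicate number's libraries, within 0.0009 log2, so any difference between replicate numbers had been taken out before deposit. Values under -5 are called the lowest value here, as the most frequent one is -6.178. Depth per library is unknown, so no interval or limit of detection was computed.

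The files were found to hold normalized log2 values, so limma 3.58.1 in R 4.3.3 was fitted to them as deposited, with 8 group means over all 24 libraries, a variance trend and robust moderation, after a check on simulated data. P-values are two-sided and were adjusted over the 11885 tested genes by the Benjamini-Hochberg method. Differences are log2 with SE, and levels of groups are means with SD over 3 libraries. Symbols were matched to the GRCm38.p6 RefSeq annotation, 21568 directly and 1688 by synonym, with 164 unmatched. The same build gave promoter windows. Python 3.11.15, numpy 2.4.6, pandas 2.3.3, scipy 1.17.1 and matplotlib 3.10.9 made tables and figures.

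The comparison, gene lists, marker lists and motifs were chosen with earlier results of these data known, so the lists are no independent evidence of their direction. Genes were named by a rule: the 12 largest differences in each direction among genes changed at least 2-fold, at 10 CPM or more in the higher group, above the lowest value in both groups and without overlap; up to 4 passing members of each list in each direction, with others whose role was needed; and a set for the label check. Some genes under this rule are not reported here. Near-identical gene copies can share reads, so single members of such families are uncertain. Whether replicate numbers pair the libraries could not be tested, as differences between numbers had been taken out.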

Additional observations from a re-analysis of the deposited data

Results flagged for a closer look

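Of the genes named in the report or below, 21 differed from naive cells in opposite directions at 12 h and at another culture time, with limma's test passed for both differences and for the difference between the 2 times. The comparisons share their naive libraries. All values are log2 differences, and adjusted p values for the difference between times were 0.000151 or smaller.

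Against 4 h, Cd86 was lower than naive at 12 h (-0.82) and higher at 4 h (2.67), with 12 h minus 4 h at -3.49. The same order held for Hspa1a (-2.37 at 12 h, 1.04 at 4 h, 12 h minus 4 h -3.41), for Vegfa (-2.16, 0.92 and -3.08), for Smox (-1.05, 1.10 and -2.15), for Irf4 (-0.75, 0.65 and -1.40), for Hif1a (-0.29, 0.24 and -0.53), for Il2rg (-0.26, 0.18 and -0.43) and for Pim1 (-1.36, 0.30 and -1.66). The Hspa1a means were low, at -2.71 at 12 h, -0.34 in naive cells and 0.70 at 4 h. Ccne1 was higher than naive at 12 h (1.96) and lower at 4 h (-0.65), with 12 h minus 4 h at 2.61, as were Pim2 (1.65, -0.85 and 2.50), Id3 (0.42, -0.98 and 1.40) and Btk (0.35, -0.13 and 0.49).

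Against 24 h, the genes lower than naive at 12 h and higher at 24 h included 3 of DNA copying and division. Mki67 differed from naive by -2.30 at 12 h and 3.32 at 24 h, with 12 h minus 24 h at -5.62. Rrm2 differed by -0.82 and 4.62, with -5.44 between the times, and Ccnb2 by -2.43 and 2.26, with -4.69. Ccl3 (-2.05, 0.73 and -2.78), Ccnd3 (-1.28, 0.62 and -1.90) and Pcx (-1.30, 0.59 and -1.88) had the same order. Rgs16 was higher than naive at 12 h (2.16) and lower at 24 h (-0.96), with 12 h minus 24 h at 3.13, as were Ahr (1.05, -0.56 and 1.61) and Cd79b (0.24, -0.15 and 0.40).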

How the results depend on the processing

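The count of genes changed against naive, 9618, was 10340 without a filter on low values, 7870 with 10 CPM required in at least 3 libraries, 9544 with 1 CPM added to every value, 9995 with only the 6 libraries, 9626 without trend and robust moderation, 9611 with centred libraries and 9270 to 9337 with 1 library left out. The count changed at least 2-fold, 4624, was 5580 without a filter on low values and 3365 with 10 CPM required in at least 3 libraries. It was 3588 with 1 CPM added and 4537 to 4641 with 1 library left out. Leaving out 1 library gave 6729 to 6896 genes changed against 4 h and 6066 to 6289 against 24 h. With the replicate number as a block, 9420 genes changed against naive (4607 at least 2-fold), 6996 against 4 h and 6395 against 24 h, and the block changed no call of a named gene. Of 3531 values of the 273 named genes under these alternatives, none changed direction, 1 lost its call and 9 gained one. Cd70 lost its call with 1 CPM added. Ddx3y, Xist, Xbp1, Hspa5 and Tlr7 passed with only the 6 libraries, Ddx3y also under 3 other alternatives, and Xist without the first naive library; the cause was not tested. The 24 differences of genes past the test that shrank more than 1.5 times with 1 CPM added belonged to genes of low level, among them Il1r1 (0.96), Tnfrsf8 (0.92), Nqo1 (0.98), Bcl2a1a (0.87), Mycl1 (-0.87) and Hspa1a (-0.61). Without a filter, the median of the pro-apoptotic genes turned to -0.29 (11 tested). Under the filter at 10 CPM, which leaves fewer markers, 1 T-cell marker rose and none fell of 2 tested, the median of 3 dendritic cell markers turned to 0.50, and 6 of 8 macrophage, 3 of 4 neutrophil and 3 of 3 natural killer cell markers fell; 3 cytokine genes of 13 and 3 of 19 MAP kinase feedback genes rose. The share of cholesterol genes with TCACNCCAC, a sterol response element, was 1 of 17 in 300 bases and 0 in the nearest 150.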

Other observations

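Close relatives changed in opposite directions outside the families described above; these pairs were picked after their values were seen. The survival kinase gene Pim2 rose by 1.65 ± 0.08, while Pim1 fell by 1.36 ± 0.10 and Pim3 by 1.99 ± 0.08. Pim2 stood at 7.31, 7.33 and 7.29 in the 12 h libraries, against 5.61, 5.74 and 5.63 in the naive libraries, and Pim3 at 5.74, 5.63 and 5.65 in the 12 h libraries, against 7.81, 7.64 and 7.54 in the naive libraries. Neither gene's groups overlapped. Of the inhibitors of E proteins, Id3 rose by 0.42 ± 0.12 and Id2 fell by 2.90 ± 0.16. The stress genes Gadd45b and Gadd45a differed by 1.15 ± 0.15 and -2.33 ± 0.12.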
